A study of Mus musculus with 6 samples.

Results

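A group of 10 genes that ERK signalling is known to induce, several of which in turn hold that signalling back, was followed through an RNA-seq experiment on interferon and the transcription elongation factor SPT6. They were 4 MAP kinase phosphatases (Dusp1, Dusp4, Dusp5 and Dusp6), 2 Sproutys (Spry2 and Spry4), 2 EGR transcription factors (Egr1 and Egr2) and 2 immediate early response genes (Ier2 and Ier3). The 10 were chosen by symbol from the 24062 genes in the count tables, with earlier results of these data known. Shares of all genes set beside their counts below are therefore descriptions, not tests of the group. All 10 were among the 13185 genes with enough counts to be tested. The experiment used NIH3T3 cells, an established line of mouse embryo fibroblasts. Cells received a control siRNA (NC) or an siRNA against SPT6 for 48 h and were then left untreated or given interferon-beta (IFN-beta) at 100 units/ml for 4 h. There was 1 untreated library for each siRNA and 2 libraries for each siRNA with IFN-beta, 6 in all. The titles call the control siRNA libraries with IFN-beta WT, but the sample records give 48 h of siRNA for every library, the controls included, in cells of one line. No 4 h library without IFN-beta was among them, so an effect of the added 4 h and an effect of IFN-beta cannot be told apart. Whether the 2 libraries of a group were separate cultures is not in the labels, so each p-value reflects the spread between these libraries alone, which may be technical.

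As background, growth factors bound to receptor tyrosine kinases activate Ras, RAF, MEK and ERK in turn, and ERK phosphorylates ternary complex factors that sit with SRF on CArG boxes of immediate early genes. Egr1, Egr2 and Ier2 are switched on in this way before any new protein is made. The DUSPs and Sproutys damp the signal: DUSPs remove phosphate from MAP kinases, and Sproutys act between the receptor and RAF. The mRNAs of most of these genes are short-lived, so their levels at one time point follow recent signalling. SPT6 is a histone chaperone that travels with elongating RNA polymerase II, and its mRNA is named Supt6 in the mouse.

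Promoter sequence upstream of the RefSeq start was held for 6 of the 10 members in the RefSeq table of build GRCm38.p6: Dusp1, Dusp5, Dusp6, Spry2, Egr2 and Ier3. The 250 bases upstream of each start were searched on both strands for the CArG box, the CRE TGACGTCA and its core TGACG, which overlap each other, the ETS core CCGGAA, the EGR site GCGGGGGCG, the AP-1 site TGACTCA, the TATA box TATAAA and the ISRE core (GAAAGAAA, also with any 2 bases between its GAAA repeats). The 3 windows with a match are shown because they set apart Dusp5 and Egr2, which share a layout, from Dusp1, which has another. Capitals mark CArG boxes and the CRE or its core, and each run ends before the first annotated UTR base. The Dusp1 run is chr17:26508520-26508722, minus strand; the Dusp5 run is chr19:53528895-53529108, plus strand; the Egr2 run is chr10:67537619-67537868, plus strand, 1 of 5 Egr2 windows in the table and the one at the start of the principal GENCODE transcript. In Dusp1 and Egr2 that start lies inside a longer GENCODE gene body, so the runs are not at the ends of the gene coordinates given with their values.
Dusp1: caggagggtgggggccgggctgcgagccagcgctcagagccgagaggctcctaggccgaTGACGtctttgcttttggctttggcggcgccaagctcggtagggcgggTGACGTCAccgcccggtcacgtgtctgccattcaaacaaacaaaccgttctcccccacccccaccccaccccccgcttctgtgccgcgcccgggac
Dusp5: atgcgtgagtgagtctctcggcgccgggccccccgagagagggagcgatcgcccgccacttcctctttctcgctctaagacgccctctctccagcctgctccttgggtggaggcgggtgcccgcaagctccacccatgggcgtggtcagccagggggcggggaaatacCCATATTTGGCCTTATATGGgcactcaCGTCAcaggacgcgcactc
Egr2: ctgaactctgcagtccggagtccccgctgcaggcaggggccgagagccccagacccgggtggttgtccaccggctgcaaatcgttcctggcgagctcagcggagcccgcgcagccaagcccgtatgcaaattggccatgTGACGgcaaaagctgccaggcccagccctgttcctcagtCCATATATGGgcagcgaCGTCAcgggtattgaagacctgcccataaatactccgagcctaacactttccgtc
Counted back from the base before the RefSeq start as -1, Dusp5 held adjacent CArG boxes at -82 to -73 and -72 to -63 and an antisense CRE core at -55 to -51. Egr2 held a CArG box at the same -72 to -63 and an antisense CRE core at the same -55 to -51, with a further core at -111 to -107. Dusp1 held a full CRE at -143 to -136, whose cores lie at -143 to -139 and, antisense, -140 to -136, and a further core at -191 to -187, but no CArG box in this window. No motif searched was found in the 250 bases of Dusp6, Spry2 or Ier3. Of 32851 mouse promoter windows of this length, 1.47% held a CArG box, 1.55% a CRE and 17.8% its core. The other motifs stood in 12% (ETS core), 2.57% (EGR site), 4.46% (AP-1 site), 12.4% (TATA box) and 5.86% (ISRE core) of windows and in none of the 6. A match is a description of letters, not of binding.

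**Figure D1:**
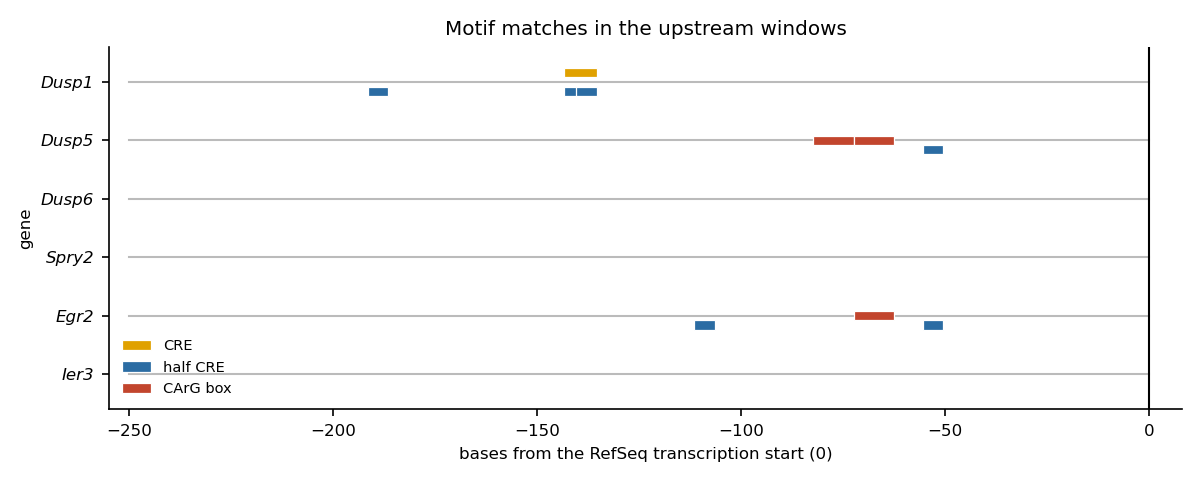
Positions of motif matches in the 250 bases upstream of the RefSeq start of the 6 members with a promoter window. The horizontal axis is the distance from the start in bases, each line is 1 gene, and markers show the motif; Dusp5 and Egr2 both have a CArG box at -72 to -63, and Dusp6, Spry2 and Ier3 have no match.

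The libraries held 7935961 to 17596498 counts in genes, with the smallest from untreated SPT6 siRNA. Supt6, the targeted gene, stood at 175 CPM (counts scaled to library size with TMM factors) in the untreated control library and 101 with SPT6 siRNA. With IFN-beta it stood at 177 and 189 in the control libraries and at 108 and 88.4 with SPT6 siRNA, so the 3 SPT6 siRNA libraries all lay under the 3 controls. The fitted log2 difference with IFN-beta was -0.90 ± 0.18 (SE), with an adjusted p of 0.247 by edgeR's quasi-likelihood test with Benjamini-Hochberg adjustment. The 9 fibroblast markers all stood above 10 CPM in every library. Their summed level was 12629 to 14583 CPM with SPT6 siRNA and 17081 to 20160 CPM with control siRNA, and all 9 had a fitted difference below 0; their part in the results below was not tested. Macrophage markers summed to 15.1 to 18.4 CPM with SPT6 siRNA and 7.72 to 11.0 CPM with control siRNA. Of these, Cd68 stood at 6.47 untreated and 7.75 and 9.92 with IFN-beta under SPT6 siRNA, against 2.38, 2.71 and 2.20 under control siRNA. Cd14 and Csf1r lay below the control in the untreated SPT6 siRNA library and above the same-numbered control with IFN-beta. Endothelial markers summed to 1.60 to 5.91 CPM and epithelial markers to 0.575 to 2.78 CPM, with Epcam and Krt5 at 0. In such bulk libraries, fewer cells with a transcript and less of it per cell cannot be told apart.

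The question of the IFN-beta comparison was which genes differed after 4 h. Dusp4, Dusp5 and Dusp6 stood at least 2-fold above the untreated library in both IFN-beta libraries with control siRNA, a step that 2.14% of all tested genes made. The same 3 phosphatases and Egr2 did so with SPT6 siRNA, where 2.31% of genes did. Counting any higher level, 8 of 10 members were above the untreated library in both IFN-beta libraries with control siRNA, all but Dusp1 and Spry4, against 35.2% of genes. With SPT6 siRNA it was 9 of 10, all but Ier2, against 34.5%. Dusp4, Dusp5, Dusp6, Spry2, Egr1, Egr2 and Ier3 were above the untreated library of their siRNA in all 4 IFN-beta libraries, against 22.5% of genes. The median fitted log2 response of the 10 members was 1.03 with control siRNA and 1.39 with SPT6 siRNA, where that of all tested genes was -0.01 and 0.00. Each moved when 1 library was left out: without the second control library with IFN-beta the control median was 0.66, and without the second SPT6 siRNA library with IFN-beta the SPT6 siRNA median was 0.66.

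No member passed the test of either response. By edgeR's quasi-likelihood test at an adjusted p under 0.05, 0 of 10 members were called in the control response, where 0.137% of genes were, and 0 of 10 in the SPT6 siRNA response, where 0.0455% were. At an unadjusted p under 0.05, Dusp4, Dusp5, Egr2 and Ier3 were higher in the control response, against 5.29% of genes, and Dusp5 and Egr2 in the SPT6 siRNA response, against 3.84%. DESeq2 called 2 members in the control response (Dusp4 and Dusp5), among 204 of all genes, and 1 in the other (Dusp5), among 129. limma-voom called 0 members in each, where it called 5 and 0 of all genes. These fits rest on 1 untreated library per siRNA, which is assumed to vary like the IFN-beta libraries.

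**Figure D2:**
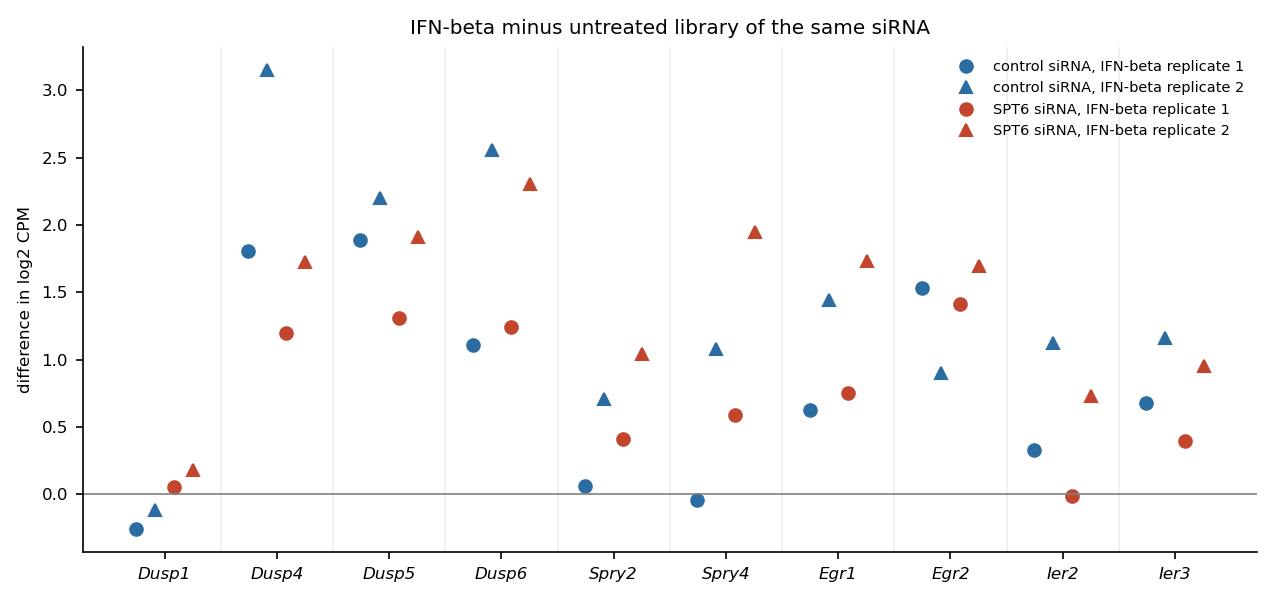
Difference in log2 CPM (vertical axis) between each of the 4 IFN-beta libraries and the untreated library of the same siRNA, for the 10 members (horizontal axis); colour marks the siRNA, and circles and triangles mark replicate 1 and replicate 2. Dusp4 reaches 3.15 in the second control library, Dusp5 lies between 1.31 and 2.20, and Dusp1 between -0.26 and 0.18.

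The question of the siRNA comparison was whether these levels depended on SPT6. With IFN-beta, both SPT6 siRNA libraries lay above both control libraries for Dusp1 and Dusp4, which 22.7% of tested genes also did, and below them for 0 members, which 21.3% of genes did. The groups overlapped for the other 8 members. Between libraries that carry the same replicate number, SPT6 siRNA was above control in all 3 comparisons, the untreated one included, for Dusp1, Dusp4, Spry2, Spry4, Ier2 and Ier3, against 25.8% of genes, and below in all 3 for Egr1, against 28.3%. A shared number is not stated to mean a shared culture. The median fitted difference of the 10 members was 0.26 on the log2 scale, with 7 above 0, where that of all tested genes was -0.02. Without the second SPT6 siRNA library with IFN-beta that median was -0.11, and it was 0.66 without the second control library and 0.47 without the first SPT6 siRNA library.

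No member passed this test either. The quasi-likelihood test called 0 of 10 members and 0% of all genes at an adjusted p under 0.05. At an unadjusted p under 0.05 it held 1 member, Dusp1, as higher, against 7.36% of genes. DESeq2 and limma-voom also called 0 members, where they called 62 and 0 of all genes. The difference between the 2 siRNAs' responses to IFN-beta was tested as an interaction: 0 members and 0% of genes were called, and 0 members stood at an unadjusted p under 0.05, against 0.379% of genes. A difference in response between the siRNAs was therefore not shown for any member, and the intervals of the interaction were wide: that of Dusp4 was -1.17 ± 0.84 (SE) and that of Spry4 0.80 ± 1.02.

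**Figure D3:**
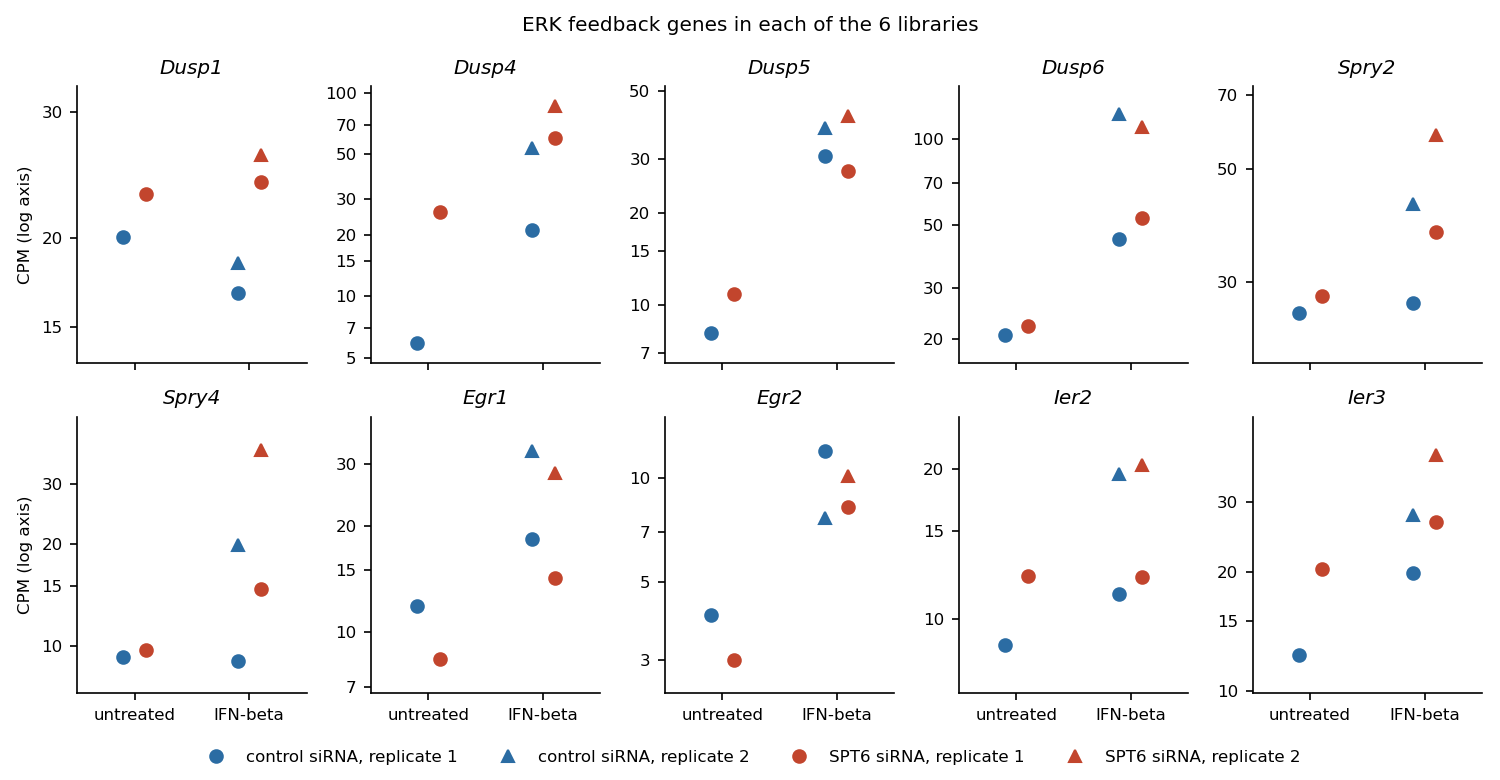
Level of each of the 10 members in each of the 6 libraries, in CPM on a log axis, with colour for the siRNA, circles for replicate 1 and triangles for replicate 2; the axes differ between genes. Dusp4 runs from 5.92 in the untreated control library to 86.7 in the second SPT6 siRNA library with IFN-beta, and Dusp1 stays between 16.7 and 26.1.

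Among the phosphatases, Dusp4, a nuclear enzyme that acts on ERK, JNK and p38 (protein-coding, chr8:34807297-34819894, plus strand, GRCm38), had the widest range as a ratio of highest to lowest library. It stood at 5.92 CPM in the untreated control library and 26.1 in the untreated SPT6 siRNA library. With IFN-beta it was at 21.2 and 53.9 with control siRNA and at 60.4 and 86.7 with SPT6 siRNA. Every SPT6 siRNA library thus lay above the control library of the same treatment, and the untreated SPT6 siRNA library lay above one of the IFN-beta control libraries. The ratio of SPT6 siRNA to control was 4.42 without IFN-beta, from 218 counts against 72, with a 95% exact counting interval of 3.37 to 5.85 that covers counting error only. It was 2.85 and 1.61 between the same-numbered IFN-beta libraries. Fitted with IFN-beta, the difference was 0.97 ± 0.46 on the log2 scale, with a 95% interval of -0.19 to 2.12 and an edgeR adjusted p of 0.482. It was 0.46 without the first control library and 1.80 without the second. The response to IFN-beta was 2.67 ± 0.67 with control siRNA (adjusted p 0.428) and 1.49 ± 0.61 with SPT6 siRNA (adjusted p 0.851).

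Dusp5, a nuclear phosphatase that binds and holds ERK (chr19:53529109-53542431, plus strand, with an annotated antisense gene), lay higher in the IFN-beta libraries of both siRNAs. Its levels were 8.13 CPM and 10.9 in the untreated control and SPT6 siRNA libraries. The IFN-beta libraries stood at 30.6 and 37.9 for control and at 27.3 and 41.5 for SPT6 siRNA. All 4 IFN-beta libraries lay above both untreated libraries, and the siRNA groups overlapped. Its response was 2.07 ± 0.36 with control siRNA, with a 95% interval of 1.22 to 2.93 and an edgeR adjusted p of 0.164, the lowest of the 10 members. With SPT6 siRNA the response was 1.66 ± 0.35 (adjusted p 0.426). The siRNA difference with IFN-beta was 0.01 ± 0.26, with a 95% interval of -0.61 to 0.62. Its promoter run holds the adjacent CArG boxes, and whether these bear on its levels was not tested.

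Dusp6, the cytoplasmic phosphatase that is selective for ERK (chr10:99263231-99267489, plus strand), was the member with the highest single level. It stood at 20.6 and 22.2 CPM in the untreated libraries. With IFN-beta it stood at 44.6 and 122 with control siRNA and at 52.8 and 110.0 with SPT6 siRNA. The second library of each siRNA held over 2 times the level of the first, with ratios of 2.74 and 2.08. That spread within groups was larger than the gap between siRNAs, which was -0.04 ± 0.59 (95% interval -1.57 to 1.49) and 0.05 when scaled by library size alone, and the control response was 2.02 ± 0.81 (edgeR adjusted p 0.613).

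Dusp1, a nuclear phosphatase that acts mostly on p38 and JNK (chr17:26505590-26562128, minus strand), had the narrowest range of the 4. It was at 20.05 CPM in the untreated control library and at 23.0 in the untreated SPT6 siRNA library. With IFN-beta it was at 16.7 and 18.5 with control siRNA and at 24.0 and 26.1 with SPT6 siRNA. All 3 SPT6 siRNA libraries lay above all 3 control libraries, by 1.15 times without IFN-beta and by 1.43 and 1.41 times with it. The fitted difference was 0.51 ± 0.20 (95% interval 0.03 to 0.98, edgeR adjusted p 0.404), and the responses to IFN-beta were -0.19 ± 0.24 and 0.12 ± 0.25. GENCODE's Dusp1 gene body spans other annotated genes, Ergic1 on the opposite strand among them. No source used here states whether counting used strand, so the effect of the overlap on the Dusp1 counts is not known.

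The Sproutys, which block the route from receptor to Ras and RAF, followed each other across libraries. Spry2 (chr14:105891947-105896819, minus strand) stood at 26.1 and 28.2 CPM in the untreated control and SPT6 siRNA libraries, at 27.3 and 42.8 in the IFN-beta control libraries, and at 37.6 and 58.2 with SPT6 siRNA and IFN-beta. Spry4 (chr18:38586247-38601415, minus strand) stood at 9.29 and 9.71 untreated, at 9.03 and 19.8 in the IFN-beta control libraries, and at 14.7 and 37.9 with SPT6 siRNA. In both genes the untreated libraries lay within counting error of each other, and the second SPT6 siRNA library with IFN-beta was the highest of the 6. Between same-numbered IFN-beta libraries the SPT6 siRNA to control ratio was 1.38 and 1.36 for Spry2 and 1.62 and 1.92 for Spry4. The groups nevertheless overlapped, since the second control library lay above the first SPT6 siRNA library in both genes. The fitted differences were 0.45 ± 0.30 for Spry2 (edgeR adjusted p 0.593) and 0.87 ± 0.57 for Spry4 (adjusted p 0.594), each with a 95% interval that holds 0. Without the second SPT6 siRNA library they were 0.099 and 0.024, and without the second control library 0.81 and 1.54. With control siRNA, the response to IFN-beta was 0.43 ± 0.38 for Spry2 and 0.64 ± 0.73 for Spry4, and with SPT6 siRNA it was 0.77 ± 0.39 and 1.44 ± 0.76. Pearson's r of log2 CPM between Spry2 and Spry4 was 0.99 over the 6 libraries, the highest of any pair of members, as a description of points that share libraries and depth.

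The EGR factors, zinc finger proteins made within minutes of ERK activation, were the members that lay lower with SPT6 siRNA without IFN-beta. Egr1 (chr18:34859823-34864984, plus strand) stood at 11.9 CPM in the untreated control library and 8.39 in the untreated SPT6 siRNA library, a ratio of 0.704 with a counting interval of 0.522 to 0.943. With IFN-beta it stood at 18.4 and 32.7 with control siRNA and at 14.3 and 28.4 with SPT6 siRNA. SPT6 siRNA was thus below control in each same-numbered comparison, but the gap of -0.26 ± 0.41 (edgeR adjusted p 0.840) was smaller than the spread between the libraries of a group, whose ratios were 1.77 and 1.99. Its response was 1.10 ± 0.54 with control siRNA and 1.35 ± 0.56 with SPT6 siRNA. Egr2 (chr10:67535475-67542188, plus strand), known for its part in myelinating and hindbrain cells, had the lowest counts of the 10, down to 25 in the untreated SPT6 siRNA library. It stood at 4.03 and 2.998 CPM untreated, within counting error of each other, at 12.0 and 7.66 in the IFN-beta control libraries, and at 8.26 and 10.1 with SPT6 siRNA. All 4 IFN-beta libraries lay above both untreated ones, and the siRNA groups overlapped. The response of Egr2 was 1.28 ± 0.42 with control siRNA (95% interval 0.29 to 2.27, edgeR adjusted p 0.506) and 1.61 ± 0.45 with SPT6 siRNA (adjusted p 0.682), and the siRNA difference with IFN-beta was -0.09 ± 0.31.

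Ier3, a small membrane-associated stress and survival protein (chr17:35821684-35822923, plus strand), lay higher with SPT6 siRNA in each same-numbered comparison. It stood at 12.3 CPM in the untreated control library and 20.3 in the untreated SPT6 siRNA library, a ratio of 1.64 with a counting interval of 1.31 to 2.06. Only Dusp4 and Ier3 of the 10 were at least 1.5-fold higher in the untreated SPT6 siRNA library, a step that 8.6% of tested genes made, and with 1 library on each side this has no replicate check. With IFN-beta Ier3 stood at 19.8 and 27.8 with control siRNA and at 26.7 and 39.3 with SPT6 siRNA, so the groups overlapped by 1 library. The fitted difference was 0.47 ± 0.27 (95% interval -0.18 to 1.12, edgeR adjusted p 0.537) and ran from 0.16 to 0.74 with 1 IFN-beta library left out, lowest without the second SPT6 siRNA library and highest without the second control library. Its responses were 0.95 ± 0.36 and 0.71 ± 0.35. Ier2, a nuclear immediate early protein encoded in 1 exon (chr8:84661331-84662852, minus strand), stood at 8.87 and 12.2 CPM untreated, at 11.2 and 19.6 in the IFN-beta control libraries and at 12.1 and 20.4 with SPT6 siRNA. Its siRNA ratio was 1.38 without IFN-beta, with a counting interval of 1.04 to 1.82, and 1.08 and 1.04 with it. The fitted difference of Ier2 was 0.08 ± 0.37, and its responses were 0.80 ± 0.47 and 0.41 ± 0.47.

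**Figure D4:**
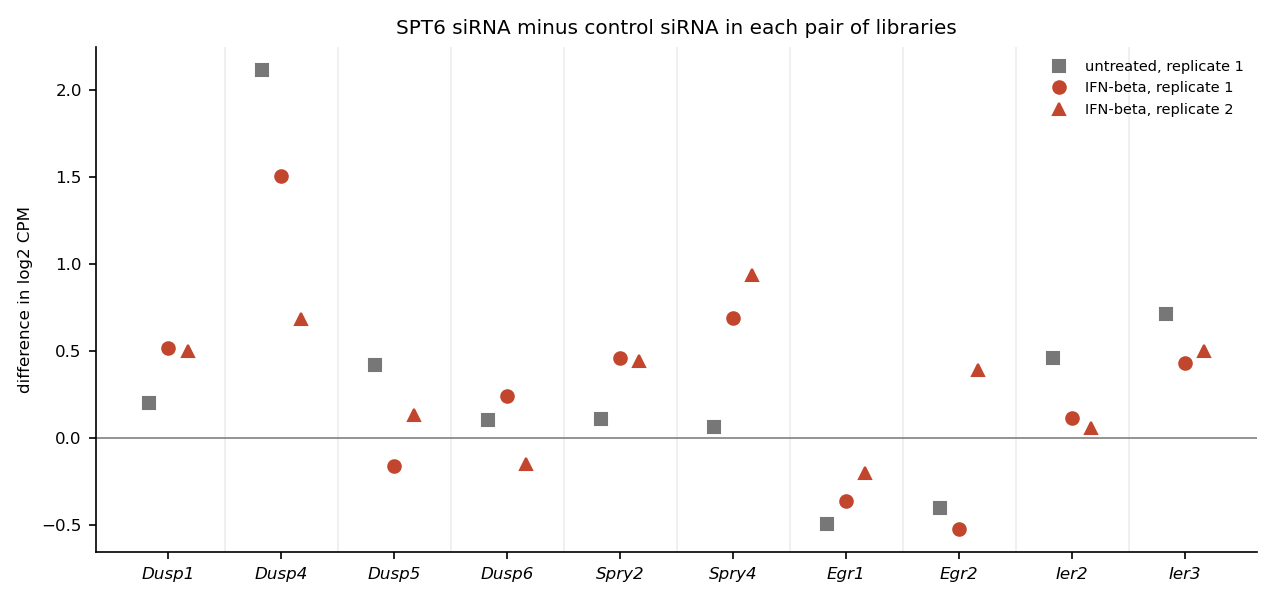
Log2 ratio of the SPT6 siRNA library to the control siRNA library of the same treatment and replicate number, for the 10 members in 3 comparisons (untreated, and the first and second IFN-beta libraries). Dusp4 lies highest without IFN-beta, at a ratio of 4.42, Spry4 lies higher with IFN-beta than without, and Egr1 is below 0 in all 3.

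The members also differed together between the replicate numbers. With IFN-beta, the second library was above the first in both siRNA groups for 9 of 10 members, all but Egr2, against 35% of tested genes. It was at least 1.5-fold above in both groups for Dusp6, Spry2, Spry4, Egr1 and Ier2, which 3.12% of genes were. The members' median log2 difference between the second and first library was 0.72 with control siRNA and 0.61 with SPT6 siRNA, where that of all genes was 0.02 and 0.00. These medians lie above the members' median difference between siRNAs of 0.26 and below their median fitted responses to IFN-beta of 1.03 and 1.39. Both untreated libraries carry the first replicate number, however, so those fitted responses take in the gap between replicate numbers. From the untreated library to the first IFN-beta library, the members' median log2 difference was 0.65 with control siRNA and 0.67 with SPT6 siRNA, close to the gaps themselves. The second control library was also the deepest of the 6, and the part of depth in these values was not tested.

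Levels were compared between genes only per kilobase of the principal GENCODE transcript. By the median of the 6 libraries, Ier3 stood highest at 20.8 CPM per kb, followed by Dusp6 at 17.4, Spry2 at 15.8, Dusp4 at 14.6, Dusp5 at 11.7, Dusp1 at 10.8 and Ier2 at 8.003. Egr1 at 3.65, Egr2 at 2.68 and Spry4 at 2.56 stood lowest. This order pools untreated and IFN-beta libraries, and it changed between them. Spry2 led the untreated control library at 12.5 CPM per kb, where Dusp6 stood at 7.38, and Dusp6 led the second control library with IFN-beta at 43.8. Of neighbours in the pooled order, Ier2 was above Egr1 and Egr1 above Egr2 in 6 of 6 libraries. The upper gene of each other pair of neighbours was above in 4 of 6 libraries or fewer, and Egr2 was above Spry4 in 1.

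As a description over the same 6 libraries, Dusp4 and Ier3 had a Pearson's r of 0.98 and Dusp6 and Egr1 of 0.94. Dusp1 was least like the others, with r of -0.18 with Egr2 and at most 0.55, with Spry4. The tested genes most like the members' mean profile, of 9806 with an average log2 CPM from 3 upward, were Abl2, which ran from 127 CPM in the untreated control library to 414 in the second SPT6 siRNA library with IFN-beta (r 0.997), then Tm9sf1, D10Wsu102e, Hmga2-ps1 and Rnf217. These values have 6 points each, and the points share libraries and depth.

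The rest of the pathway was read from lists of its parts, which hold 90 genes beside the members, 83 of them tested. edgeR's test called 0 of the 83 in each of the 4 comparisons. At an unadjusted p under 0.05, 5 of the 83 were higher and 2 lower between siRNAs with IFN-beta, where 7.36% and 4.31% of all tested genes were. The higher ones were Dusp3, Dusp14, Rasa2, Fos and Hbegf, and the lower ones Fgf7 and Pdgfrb. In the control response 13 were higher and 4 lower, where 5.29% and 2.94% of all genes were, and in the SPT6 siRNA response 17 and 4, where 3.84% and 2.01% were. In the interaction it was 0. DESeq2 called 2 in the control response (Etv5 and Hbegf), 4 in the SPT6 siRNA response (Etv5, Fgf2, Hbegf and Ksr1) and 0 in the other comparisons, among 204, 129, 62 and 0 of all genes for the control response, the SPT6 siRNA response, the siRNA comparison and the interaction. limma-voom called 0 of the 83 in each. The core of the ERK cascade was listed from upstream genes such as Shc1, Grb2 and Sos1 through Ras to ERK and the Rps6ka kinases. Of this list, 19 of 20 genes were tested. Their median was 0.09 between siRNAs with IFN-beta, -0.03 in the control response and -0.02 in the SPT6 siRNA response. Single core genes ran from -1.13 (Ksr1) to 0.86 in the control response. In the SPT6 siRNA response they ran from -1.32 (Ksr1) to 0.69. The fitted responses of Ksr1, the lowest of the list in each, were -1.13 ± 0.22 and -1.32 ± 0.22. Each was taken against 1 untreated library, and edgeR's test called neither. Among 11 other ERK targets, 8 had a control response above 0, with a median of 1.21, and 10 had an SPT6 siRNA response above 0, with a median of 0.55; of all tested genes 49.4% and 50.7% lay above 0. Fos, the partner of Jun in AP-1, had a fitted difference of 1.04 ± 0.43 between siRNAs with IFN-beta, with an edgeR adjusted p of 0.425. Its levels were low, at 3.76 and 2.49 CPM in the IFN-beta control libraries and at 4.38 and 8.35 with SPT6 siRNA, the second of these standing apart. Of the growth factor ligands, 10 of 13 were tested, and their median was -0.10 between siRNAs. Hbegf, an EGF receptor ligand, ran like Dusp4: 5.75 and 21.5 CPM untreated, 18.5 and 40.7 in the IFN-beta control libraries, and 53.0 and 125 with SPT6 siRNA. Its difference was 1.59 ± 0.55 (adjusted p 0.389), and both SPT6 siRNA libraries lay above both control libraries. Fgf7, another ligand, lay the other way, at 240 and 170 CPM in the IFN-beta control libraries and at 154 and 115 with SPT6 siRNA. The fitted difference of Fgf7 was -0.61 ± 0.24 (edgeR adjusted p 0.404).

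Of 8 other MAP kinase phosphatases 7 were tested, and 3 of the 7 had a siRNA difference with IFN-beta above 0, as 48.0% of all tested genes did. Dusp14 and Dusp3 lay higher with SPT6 siRNA in all 3 same-numbered comparisons. Over the 4 IFN-beta libraries their fitted differences were 0.95 ± 0.20 (edgeR adjusted p 0.291) and 0.91 ± 0.21 (adjusted p 0.302). The control response of Dusp14 was -0.13 ± 0.25 and that of Dusp3 0.61 ± 0.26. Among 12 tested inhibitors of Ras and ERK signalling other than the members, 6 had a siRNA difference above 0, with a median of 0.03. The next list held 4 genes, for SRF, which binds CArG boxes, and for the ternary complex factors that sit with it there. Srf itself had a control response of 1.10 ± 0.33 (adjusted p 0.470) and a siRNA difference of -0.10 ± 0.26. Among 5 tested EGR and IER relatives and corepressors, Egr3 was at 0.85 ± 0.68 between siRNAs. AU-rich mRNAs include many immediate early transcripts. Of 6 genes for their binding or decay factors, 3 had a siRNA difference above 0, with a median of -0.09. Among 9 growth factor receptors of fibroblasts, 4 had one, with a median of -0.10. The lowest value among these receptors was that of Pdgfrb, at -0.42 ± 0.16 (edgeR adjusted p 0.393).

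**Figure D5:**
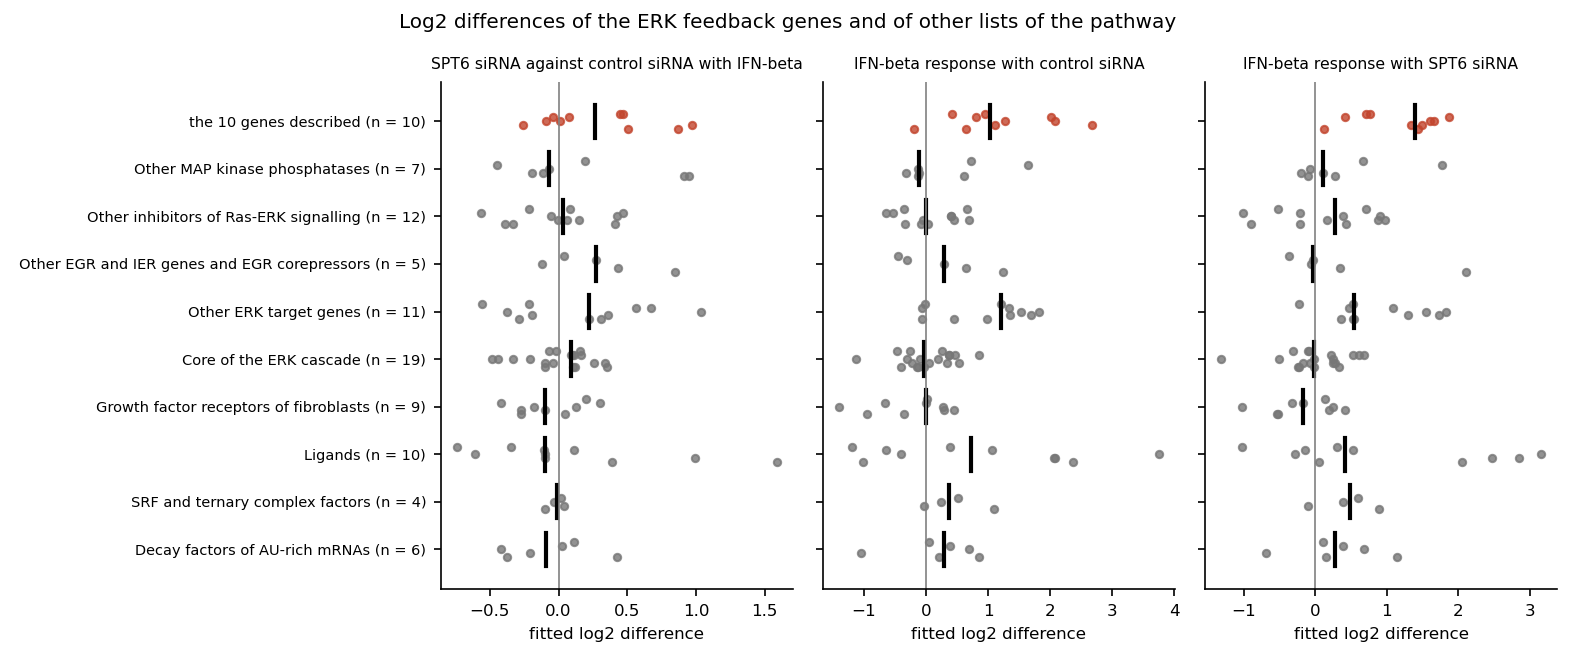
Fitted log2 difference between SPT6 siRNA and control siRNA with IFN-beta and the fitted responses to IFN-beta, for the members and the other lists of the ERK pathway, with each point 1 tested gene and each black bar the median of its list. The members' median response was 1.03 with control siRNA and 1.39 with SPT6 siRNA, and those of the core cascade were -0.03 and -0.02.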

How the data were processed

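The 6 NIH3T3 libraries were deposited by the authors as raw read counts per gene, 1 table per library. HTSeq 0.6.1p1, TopHat2 2.1.0, DESeq2 and the builds mm10 and GRCm38 appear in the submitters' processing notes with no role stated; whether counting used strand is not given in the sources used here. Lines for reads outside genes entered neither totals nor tests: reads in no feature were 33.8% to 37.5% of all lines' counts, non-unique ones 27.9% to 31.3% and ambiguous ones 0.326% to 0.384%, which left 32.9% to 38.0% in genes. Groups were taken from the labels. Genes were kept with edgeR's filterByExpr at a count minimum of 10 (13185 of 24062), scaled by TMM and tested with the quasi-likelihood test of edgeR 4.0.16 (limma 3.58.1, R 4.3.3) on 4 group means over all 6 libraries, with 2 residual degrees of freedom. Adjusted p is Benjamini-Hochberg over all genes tested, and a gene was called at under 0.05. The untreated pair, 1 library each, got ratios with a 95% exact counting interval and no test. log2 CPM used a prior count of 2.

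The members and lists were chosen with earlier results of these data known. Named genes were all members, Supt6 and the 5 genes most like the members' mean profile. From each list came up to 3 genes with the smallest p between siRNAs with IFN-beta. Of the pathway list genes, those at an unadjusted p under 0.05 in edgeR's siRNA comparison with IFN-beta are printed, with some others. Genes that DESeq2 alone called, and list members named by their role, were chosen after their values were seen. Alternatives were RLE and library-size scaling, DESeq2 1.42.0, limma-voom, 2 other filters, a replicate block, a fit over 3 same-numbered comparisons, the 4 IFN-beta libraries alone and each IFN-beta library left out. Promoters came from the RefSeq table (GRCm38.p6) and gene positions from the GENCODE annotation of GRCm38.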

Additional observations from a re-analysis of the deposited data

How the results depend on the processing

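Each siRNA had 1 untreated library and 2 with IFN-beta, and the members' counts ran from 25 to 2062 per library. Of the members' fitted values under the alternatives, 17 of 130 reversed between siRNAs with IFN-beta, 2 of 110 in each response and 8 of 110 in the interaction.

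Equal replicate numbers are not stated to pair libraries, and only 2 numbers are shared. The differences between the second and first IFN-beta libraries correlated over genes between the siRNAs (r = 0.560, 13185 genes). With the replicate block, 5 members (Dusp1, Dusp4, Spry2, Spry4 and Ier3) and 2638 genes were called between siRNAs, with 5 members at an unadjusted p under 0.05. The fit over 3 same-numbered comparisons, also a pairing by number, called the same 5 and 3245 genes, with 6 at an unadjusted p under 0.05. With the block, 4 members and 957 genes were called in the control response, 4 members and 545 genes in the SPT6 siRNA response (Dusp4, Dusp5, Dusp6 and Egr2 in each; 6 at an unadjusted p under 0.05), and 4 genes in the interaction, with 2 members at an unadjusted p under 0.05. Under the block the siRNA difference was -0.0092 for Dusp5 and 0.033 for Dusp6, the control response of Spry4 -0.11 and the SPT6 siRNA response of Ier2 -0.028.

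Between siRNAs, DESeq2 called 62 genes and no filter 66; limma-voom had 2 members at an unadjusted p under 0.05 and no filter 0. Dusp5 was -0.013 with limma-voom and -0.010 with no filter, and Dusp6 0.053 with library size only, 0.043 with limma-voom and 0.051 over the 3 comparisons. In the control response, DESeq2 called 2 members and 204 genes, no filter 1 (Dusp5) and 77, limma-voom 5 genes, and an average log2 CPM of 1 or more 8 genes. In the SPT6 siRNA response, DESeq2 called 1 member and 129 genes, with 5 members at an unadjusted p under 0.05; library size only called 12 genes, limma-voom 0 and no filter 46.

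With each IFN-beta library left out in turn, members at an unadjusted p under 0.05 ranged from 0 to 2 between siRNAs, 2 to 8 in the SPT6 siRNA response (8 without the first SPT6 siRNA library) and 0 to 1 in the interaction. Genes called ranged from 16 to 52 in the control response (52 without the first SPT6 siRNA library, 45 without the second) and 9 to 25 in the other (25 without the second). Between siRNAs, Dusp4 ranged from 0.46 to 1.80, Spry2 from 0.099 to 0.81, Spry4 from 0.024 to 1.54, Ier3 from 0.16 to 0.74, Dusp1 from 0.44 to 0.58, Dusp5 from -0.33 to 0.26, Dusp6 from -0.66 to 0.87, Egr1 from -0.84 to 0.21, Egr2 from -0.38 to 0.28 and Ier2 from -0.35 to 0.54. The control response of Spry4 ranged from -0.040 to 1.08 and the SPT6 siRNA response of Ier2 from -0.029 to 0.73. In the interaction, Dusp6 ranged from -0.79 to 0.76, Spry2 from -0.030 to 0.70, Spry4 from -0.061 to 1.48, Egr1 from -0.36 to 0.72, Ier2 from -0.83 to 0.073 and Ier3 from -0.58 to 0.021.

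Scaling by library size only moved the share of higher genes, among those at an unadjusted p under 0.05, from 63.1% to 79.9% between siRNAs, 64.3% to 45.5% in the control response and 65.6% to 52.6% in the other. Apart from the smaller sets of libraries and genes that some alternatives test by construction, the cause of these shifts was not tested.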
